A study of Homo sapiens with 6 samples.

Results

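The 3 libraries described here were made from wild-type SH-SY5Y cells, an established human neuroblastoma line, grown untreated, and they are 3 of the 6 libraries of a series that also holds 3 libraries of an OTULIN knockout of the same line. They were picked by their genotype label, with earlier results of these data known, and the knockout values enter no number below. Messenger RNA was captured on oligo(dT) beads and sequenced, and the table lists a count and an FPKM value (fragments per kilobase of gene, scaled to the sequenced fragments) for 32862 genes. All 3 libraries carry the same batch label. The labels do not say whether they came from separate cultures, so the spread between them may be technical. SH-SY5Y is a cell line, and its libraries describe that line rather than a tissue. All values after ± are the SD of the 3 libraries, and no test was made, because there is no second group.

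Neuroblastoma arises from the sympathoadrenal branch of the neural crest, the embryonic lineage of sympathetic neurons and adrenal chromaffin cells. Cells of that lineage are held in their noradrenergic state by a circuit of transcription factors that activate one another, among them HAND2 and GATA3. They convert tyrosine to noradrenaline in steps catalysed by TH, DDC and DBH, and store it with granins in dense-core vesicles. Neuroblastoma lines can also take on a mesenchymal state marked by factors such as PRRX1 and by genes of the extracellular matrix.

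The libraries held 62210442, 64352333 and 61772795 counts in replicates 1, 2 and 3, so that a gene with no count in a library lay below about 3 counts, or 0.0466 to 0.0486 CPM (counts scaled to a common library total). This limit covers the error of counting alone, and no source used here mentions molecular identifiers. A count was listed for 27453 to 27958 genes per library. Replicate 3 stood apart in a small set of genes, and replicate 1 differed along the GC content of transcripts. Replicate 3 held 60 of 16801 genes (0.357%) at 5-fold or more above both other libraries, where replicate 1 held 14 (0.0833%) and replicate 2 held 19 (0.113%). The 60 included keratin genes, red-cell genes and RNA polymerase III transcripts, and none of the noradrenergic, adrenergic transcription factor, granin or neuronal genes listed here. Both patterns are given in full at the end of the results.

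Of the 4 genes used to check the identity of the cells, DBH, HAND2 and CHGA were among the more abundant nuclear messages and TH was under 1 FPKM. DBH (ENSG00000123454, hg38 chromosome 9, 133636363 to 133659329, plus strand), which makes noradrenaline from dopamine, was counted 132876, 126186 and 114963 times. Its level was 714, 655 and 621 FPKM, with a mean of 663 ± 47.2, and it ranked 10 among nuclear protein-coding genes. HAND2, a basic helix-loop-helix factor of sympathetic neurons, stood at 252, 239 and 231 FPKM. CHGA, which encodes the vesicle granin chromogranin A, stood at 254, 207 and 199.5 FPKM. These 3 genes were highest in replicate 1 and lowest in replicate 3. TH (chromosome 11), the enzyme for the first and rate-limiting step, had only 103, 138 and 97 counts, or 0.461, 0.606 and 0.443 FPKM. The DBH level was 1548, 1080.2 and 1402 times the TH level in the 3 libraries. So 3 of the 4 markers were high, while TH was low in every library.

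The stretches upstream of the start sites of 3 checked markers, and of VGF, the most abundant granin, are printed so that the sequences behind these levels can be read. Each is the 250 bases before the RefSeq gene start in GRCh38.p14, 5′ to 3′ on the gene's strand. Capitals mark TATAA, the core of a TATA box, and TGACG, the core of the cyclic AMP response element, each searched on both strands. The windows are chr9:133636113-133636362 plus strand for DBH, chr14:92922900-92923149 plus strand for CHGA, chr7:101165570-101165819 minus strand for VGF and chr4:173530230-173530479 minus strand for HAND2.
DBH: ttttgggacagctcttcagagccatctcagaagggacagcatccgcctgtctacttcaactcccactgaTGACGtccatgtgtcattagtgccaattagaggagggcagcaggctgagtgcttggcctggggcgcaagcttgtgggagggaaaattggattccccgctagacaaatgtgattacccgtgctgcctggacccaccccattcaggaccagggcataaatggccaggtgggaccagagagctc
CHGA: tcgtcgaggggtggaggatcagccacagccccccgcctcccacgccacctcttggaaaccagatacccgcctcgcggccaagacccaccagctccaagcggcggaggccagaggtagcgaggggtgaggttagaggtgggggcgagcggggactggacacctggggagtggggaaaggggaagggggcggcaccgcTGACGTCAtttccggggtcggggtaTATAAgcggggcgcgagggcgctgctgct
VGF: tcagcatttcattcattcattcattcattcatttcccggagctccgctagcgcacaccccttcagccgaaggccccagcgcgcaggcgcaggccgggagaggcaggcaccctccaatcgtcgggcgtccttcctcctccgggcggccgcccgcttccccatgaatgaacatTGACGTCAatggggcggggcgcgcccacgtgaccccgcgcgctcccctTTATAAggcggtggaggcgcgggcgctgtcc
HAND2: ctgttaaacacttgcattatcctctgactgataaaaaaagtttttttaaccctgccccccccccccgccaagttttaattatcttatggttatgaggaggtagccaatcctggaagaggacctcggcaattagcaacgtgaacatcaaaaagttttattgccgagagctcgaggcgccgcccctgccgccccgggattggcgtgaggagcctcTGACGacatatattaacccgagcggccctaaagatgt
CHGA and VGF each held the full palindrome TGACGTCA, at 54 to 47 and at 79 to 72 bases before the start, and each held TATAA closer to it, at 29 to 25 and at 30 to 26 bases. DBH held a single TGACG at 181 to 177 bases and HAND2 one at 37 to 33 bases. TGACGTCA was present in 482 of 27305 promoters of the same length (1.77%), TGACG, which it contains, in 21.7%, and TATAA in 19.6%. These matches describe letters in a window and say nothing of a factor bound there.

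The remaining listed genes of noradrenaline synthesis and storage with a row ranged from 60.5 FPKM for CYB561 to 0.147 FPKM for SLC18A2. Of the 12 listed genes with a row, 10 reached 1 FPKM and 5 reached 10 FPKM. CYB561, which supplies electrons to DBH inside the vesicle, stood at 63.5, 59.8 and 58.2 FPKM. DDC, the enzyme that forms dopamine, stood at 61.3, 57.9 and 54.7 FPKM, so that DBH exceeded it 11.4 ± 0.180-fold per length. SLC6A2, the noradrenaline transporter of the plasma membrane, stood at 52.3 ± 1.87 FPKM and was lowest in replicate 1. Of the vesicular monoamine transporters, the endocrine form SLC18A1 (5.23 ± 0.391 FPKM) exceeded the neuronal form SLC18A2 (0.147 ± 0.0300 FPKM) in every library. PNMT, which turns noradrenaline into adrenaline, had 190, 130 and 147 counts and 1.94 ± 0.412 FPKM. SLC6A3, the dopamine transporter, had no row in the table.

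The adrenergic core transcription factors were high as a list: 15 of 16 reached 1 FPKM and 7 reached 100 FPKM. The median of all 16 members was 72.0 FPKM. The median of all protein-coding genes was 3.12 FPKM, and that of the expressed ones alone 6.71 FPKM. HAND2 at 241 ± 10.7, PHOX2A at 228 ± 25.7 and GATA2 at 225 ± 22.0 FPKM led the list and overlapped in their ranges. The GATA pair kept a nearly constant proportion, with GATA2 over GATA3 at 1.96, 1.97 and 2.01. HAND2 exceeded HAND1, its paralog, 3.78 ± 0.0921-fold. INSM1, a zinc-finger factor of neuroendocrine cells, was the exception, with 0, 0 and 12 counts.

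Granins and neuropeptides are the cargo of dense-core vesicles. Of 11 granin and prohormone-processing genes, 9 reached 1 FPKM and 3 reached 100 FPKM. VGF, a nerve growth factor-responsive granin, stood at 685, 592 and 564 FPKM and ranked 13 among nuclear coding genes. SCG2, which encodes secretogranin II, stood at 145, 176.5 and 182 FPKM and was lowest in replicate 1, opposite to VGF and CHGA. CHGA exceeded CHGB 6.42-, 4.87- and 4.53-fold. PCSK1 and PCSK2, the prohormone convertases, had 4, 5 and 6 counts and 57, 33 and 29 counts. Other processing enzymes were present: CPE, the carboxypeptidase that trims cleaved peptides, stood at 18.4 ± 1.22 FPKM, and PAM, which amidates them, at 8.64 ± 0.475 FPKM. PCSK1N, an inhibitor of PCSK1, had 4884, 3409 and 3106 counts, and its 53.9 FPKM in replicate 1 lay well above the 36.3 and 34.4 of the others. Among 15 listed neuropeptides, 9 had a row and 3 reached 10 FPKM. These were galanin (GAL, 116 ± 8.30 FPKM), VIP (55.9 ± 6.29 FPKM) and NPY (40.7 ± 1.26 FPKM), each a co-transmitter of sympathetic neurons.

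Pan-neuronal genes were broadly present: 24 of 26 reached 1 FPKM, 18 reached 10 FPKM, and the median was 16.3 FPKM. STMN2, a microtubule-destabilising protein of growing axons, stood at 479.8, 493 and 485 FPKM and varied little. UCHL1, a neuronal ubiquitin hydrolase, stood at 226 ± 2.19 FPKM and TUBB3, neuronal beta-tubulin, at 105 ± 11.9 FPKM. CRMP1, which acts in axon guidance, stood at 84.9 ± 6.49 FPKM. The 2 members under 1 FPKM were PRPH, the peripherin of peripheral neurons, with 31, 52 and 18 counts, and RBFOX3, the NeuN antigen of mature neurons, with 50, 42 and 46 counts.

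Mesenchymal state genes lay far lower as a list, with a few high members. Of 26 with a row, 14 reached 1 FPKM and 4 reached 10 FPKM, with a median of 1.23 FPKM. Of all protein-coding genes, 66.5% reached 1 FPKM, with a median of 3.12 FPKM. PRRX1, MEOX2 and TBX18 had no row and RUNX2 had 0 counts in all 3 libraries. On the log2(FPKM + 1) scale the list median was 1.16 ± 0.0448, against 6.18 ± 0.0916 for the adrenergic factors, a gap of 5.02 ± 0.123 that compares different genes and is a description. TWIST1, a factor of epithelial-mesenchymal transition, was the highest member at 168, 158 and 154.5 FPKM, whereas its paralog TWIST2 had 35, 4 and 19 counts. VIM, the intermediate filament vimentin, stood at 39.6 ± 1.04, LGALS1 (galectin 1) at 36.2 ± 2.15 and the matrix protein SPARC at 14.6 ± 0.809 FPKM. The count of members at 1 FPKM was 14 without replicate 3 as well. In bulk RNA, fewer cells in a state and less RNA per cell cannot be told apart.

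**Figure D1:**
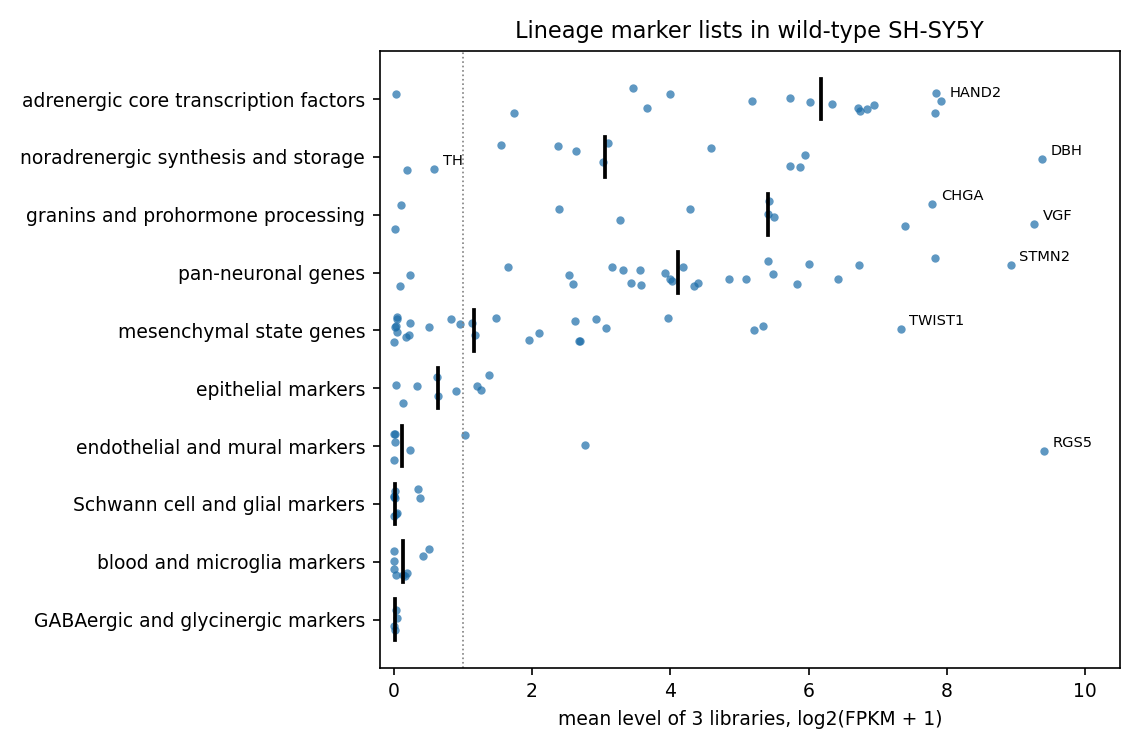
Each point is the mean level of 1 gene over the 3 libraries on the log2(FPKM + 1) axis, black bars are list medians, and the dotted line marks 1 FPKM. The median bars of adrenergic factors, granins and neuronal genes lie to the right of the mesenchymal bar, although single genes overlap, while TH lies left of the line and RGS5 stands alone in the endothelial and mural list.

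Markers of other transmitters and cell types were near 0, with a few single genes high. All 4 GABAergic and glycinergic genes with a row and all 9 Schwann cell and glial genes were under 1 FPKM, as were all 3 regulators of midbrain dopamine neurons. SOX10, the defining factor of Schwann cell precursors, had 4, 5 and 4 counts. SLC18A3, the vesicular acetylcholine transporter, stood at 24.4, 21.9 and 20.9 FPKM, although CHAT, the enzyme that makes acetylcholine and whose gene encloses it, had 18, 18 and 60 counts. FEV, a factor of serotonergic neurons, stood at 85.9, 70.6 and 65.2 FPKM, although the serotonin enzyme TPH1 had 35, 85 and 38 counts and TPH2 had no row. RGS5, a regulator of G-protein signalling often used as a pericyte marker, stood at 664, 688 and 674 FPKM and ranked 9 among nuclear coding genes. The defining endothelial genes beside it were near 0: PECAM1 had 4, 0 and 6 counts and VWF had 0, 0 and 38. PDGFRB, the platelet-derived growth factor receptor of pericytes, stood at 5.78 ± 0.305 FPKM. Whether cells other than neuroblastoma cells contributed to the RGS5 level was not tested. Epithelial markers reached 1 FPKM in 3 of 9 genes over all libraries and in 1 of 9 without replicate 3.

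Abundance was spread over many genes and headed by mitochondrial transcripts. Of the 32862 genes, 12713 (38.7%) had a mean of at least 1 FPKM, taken here as expressed, and 4112 had at least 10, 272 at least 100 and 23 at least 1000 FPKM. Among 16136 protein-coding genes, 10727 (66.5%) were expressed. The 10 genes with most counts took 8.90%, 8.71% and 8.64% of each library. To reach 50% of the counts, 992, 1031 and 1046 genes were needed. By summed FPKM, which weights short genes more, the 10 highest genes took 25.7% ± 0.172.

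**Figure D2:**
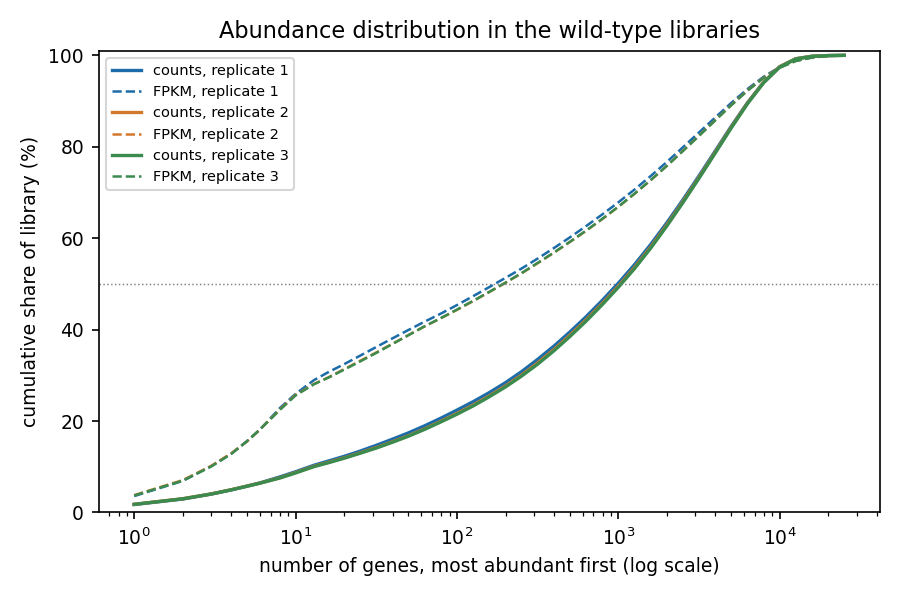
The share of each library held by its most abundant genes is plotted against their number on a log axis, with solid lines for counts and dashed lines for FPKM. The 3 libraries nearly coincide, and the dotted 50% line is met at 992 to 1046 genes by counts.

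The 37 genes of the mitochondrial genome accounted for 8.70%, 8.44% and 8.41% of counts and for 31.4% ± 0.0957 of summed FPKM. MT-CO1, a subunit of cytochrome c oxidase, was the most abundant gene on both scales, with 10355, 10587 and 10447.5 FPKM and 17594 ± 203 CPM. MT-CO3 at 9327 ± 242 FPKM and MT-CO2 at 8938 ± 366 FPKM, the other mitochondrially encoded subunits of that enzyme, followed. The large ribosomal RNA MT-RNR2 had 7128 ± 61.2 FPKM. Neighbouring genes of this genome overlap and nuclear copies exist: MTATP6P1, a nuclear pseudogene nearly identical to MT-ATP6, was listed at 1499 ± 25.8 FPKM, a value that the counting could share with its original. MT-ND1, a subunit of complex I, was the least even of the leading ones, at 6702, 5618 and 5262 FPKM. The 77 ribosomal protein genes were all expressed, 55 of them at 100 FPKM or more. They took 5.65%, 5.69% and 5.60% of counts, led by RPS2 at 871 ± 44.9 FPKM.

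The most abundant nuclear coding messages were those of cytoskeleton, glycolysis and translation, with DBH, RGS5 and VGF among them. ACTB, beta-actin, led at 1326, 1223 and 1186 FPKM, and GAPDH, a glycolytic enzyme, followed at 983 ± 40.1 FPKM. ACTG1, gamma-actin, stood at 936 ± 12.9, TUBB at 745 ± 30.1 and TUBA1B, an alpha-tubulin, at 692 ± 11.9 FPKM. The actins and tubulins together took 2.10% ± 0.0774 of counts, with 14 of 18 genes expressed and 8 at 100 FPKM or more. Of 22 glycolytic genes, 18 were expressed. LDHB, the lactate dehydrogenase subunit of oxidative tissues, exceeded LDHA 2.10 ± 0.0549-fold per length. Near-identical tubulin and actin genes could share reads, so their separate values are uncertain.

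The order of these genes depended on the gene length used. The length implied by a gene's FPKM and count matched the union of all its annotated exons in GENCODE v29, with a median ratio of 1.00 over 8998 genes, and was 1.38 times the longest transcript at the median. For 1670 of these genes (18.6%) it exceeded the longest transcript more than 2-fold. EEF1A1, the elongation factor that brings transfer RNA to the ribosome, had 559354, 600051 and 576782 counts, the most of any nuclear gene, yet 840.0 ± 17.1 FPKM and rank 5. Per kilobase of the longest transcript it ranked 2, after ACTB, and RACK1, a ribosomal scaffold chosen here after its values were seen, moved from rank 57 to rank 11. DBH moved from rank 10 to rank 47, since its implied length of 2746 bases lay under the 3775 of its longest transcript, and EEF1A1 also departed from the rule, with an implied 10063 bases against a union of 5948. Of the 100 highest nuclear coding genes, 82 were shared between both lengths.

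Growth and cell cycle genes were expressed nearly throughout. Of 32 cell cycle genes, 31 reached 1 FPKM and 25 reached 10 FPKM. CCND1, the G1 cyclin, stood at 331, 321 and 311 FPKM, while CCND2 had 0, 0 and 33 counts. PCNA, the clamp of DNA polymerase, stood at 285, 317 and 315 FPKM, and the replicative helicase subunit MCM7 at 190.2 ± 2.51 FPKM. Of the MYC family, MYC stood at 20.7, 19.3 and 19.3 FPKM and exceeded MYCN, the oncogene amplified in a share of neuroblastomas, 2.29 ± 0.0788-fold per length. The highest gene of that list was MYBL2, a cell cycle transcription factor, at 108 ± 8.58 FPKM.

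Of 13 receptors studied in neuroblastoma, 8 were expressed, where 66.5% of all protein-coding genes were. The list is one of receptor kinases but includes NGFR, which is not a kinase and was among the 8 at 2.76 FPKM. It was led by RET, the receptor for glial-derived neurotrophic factors, at 23.8, 21.3 and 22.0 FPKM. Next was ALK, a receptor mutated in part of these tumours, at 16.3, 16.8 and 17.8 FPKM. NTRK2, the receptor for brain-derived neurotrophic factor, stood at 0.300 ± 0.0379 FPKM. Among surface antigens used as targets, CD24 was highest at 174 ± 3.32 FPKM, followed by DLK1 at 53.4 ± 4.97, the glypican GPC2 at 43.3 ± 2.51 and CD276 at 24.7 ± 2.52 FPKM. ST8SIA1, the synthase of the ganglioside GD3 from which GD2 is made, had 99, 68 and 67 counts. Both pairs of neighbouring imprinted genes were unequal. H19 had 240.2, 208 and 195 FPKM, and its neighbour IGF2 3.95, 3.02 and 2.69 FPKM. On chromosome 14 DLK1 and RTL1, which are read from the paternal copy, stood at 53.4 ± 4.97 and 49.6 ± 6.32 FPKM, while the maternally read MEG3 had 2, 12 and 0 counts.

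OTULIN, the deubiquitinase removed in the companion knockout line, which cuts linear ubiquitin chains, had 1682, 2101 and 2155 counts and 3.30 ± 0.419 FPKM. It was lowest in replicate 1. The linear chains are built by a complex of RNF31, RBCK1 and SHARPIN. SHARPIN stood at 11.2 ± 0.925, RBCK1 at 4.55 ± 0.400 and RNF31 at 2.66 ± 1.23 FPKM. RNF31 was counted 635, 1334 and 1737 times, the widest relative range of the 3. CYLD, a further deubiquitinase of these chains, stood at 2.32 ± 0.269 FPKM, and MAPT, which encodes tau, had 2945, 2794 and 2408 counts and 2.15 ± 0.211 FPKM on a gene length far above its longest transcript.

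By the transcript types listed for each gene, protein-coding genes were 49.1% of all rows and held 94.5%, 94.95% and 94.7% of counts. Genes of lncRNA type were 26.8% of rows and held 2.62% ± 0.198 of counts, and pseudogenes were 14.3% of rows and held 0.780% ± 0.00818. Of 8801 lncRNA genes, 1117 (12.7%) were expressed. The 4 highest lncRNA entries all lie on chromosome 21 in the ribosomal DNA, and 3 of the 4 overlap RefSeq 18S ribosomal RNA genes when strand is ignored. All 4 are listed on the minus strand, while the ribosomal RNA genes RNA5-8SN2 and RNA5-8SN3 nearby are listed on the plus strand. The 4 lncRNA entries held 0.823%, 0.438% and 0.463% of counts, 28.9% of lncRNA counts in replicate 1 and 17.6% and 18.3% in the others. Without them, lncRNA genes held 2.02%, 2.05% and 2.06%. H19 was the highest other lncRNA, followed among the listed ones by NORAD, a decoy of PUMILIO proteins, at 51.9 ± 1.25 FPKM and by the small nucleolar RNA hosts GAS5 at 41.2 ± 1.88 and SNHG1 at 34.8 ± 2.51 FPKM. In these poly(A)-captured libraries, snoRNA and scaRNA types held 0.00206% and miRNA types 0.00470% of counts.

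**Figure D3:**
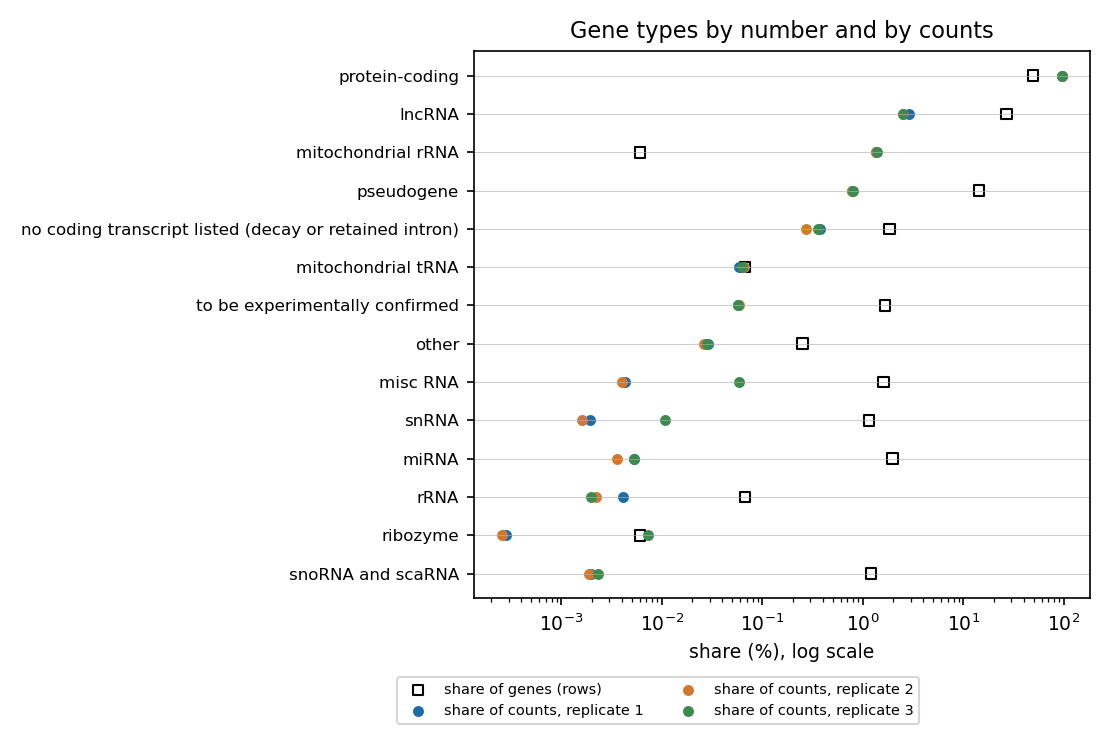
For each transcript type, open squares give its share of the 32862 rows and filled points its share of counts in each library, on a log axis in percent. Protein-coding genes lie to the right of their square, lncRNA and pseudogenes to the left, and replicate 3 alone lies far right among misc RNA, snRNA and ribozyme types.

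Upstream sequence differed between genes of different level. The 250 bases before the RefSeq start were available for 12890 of 15578 nuclear coding genes outside chromosome 8 (82.7%). A CpG ratio of 0.6 or more, the observed CpG number over that given by C and G content, was found in 36.9% of genes under 0.1 FPKM. The share was 57.0% at 0.1 to 1 FPKM, 82.4% at 1 to 10, 89.1% at 10 to 100 and 90.2% at 100 FPKM or more. TATAA on the gene's strand, at 40 to 16 bases before the start, had a different course: 9.02%, 6.65%, 2.01%, 2.18% and 14.4% across the same classes. The 25 genes of the top class with it included EEF1A1, EEF2, VGF, RPS18 and CHGA. DBH went against the level trend, with a CpG ratio of 0.259 at rank 10. Genes of a class share depth and annotation, so these shares describe the table and were not tested.

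Replicates were close for most expressed genes. The median coefficient of variation (CV) of CPM over the 3 libraries was 7.04%, and 8805 of 12713 expressed genes (69.3%) were under 10%. It fell with level, from a median of 10.6% at 1 to 3 FPKM to 4.06% at 100 to 300 and 4.11% at 300 FPKM or more. For the lowest and highest of these classes, counting alone would give 4.23% and 0.335%. edgeR's common dispersion gave a biological coefficient of variation, the spread beyond counting, of 14.4%. The median absolute log2 difference between libraries was 0.108 for replicates 1 and 2, 0.123 for 1 and 3, and 0.0622 for 2 and 3. By this measure replicate 1 was the farthest from the others, whereas the Pearson correlation of log2(FPKM + 1) across the same genes was 0.988 for replicates 1 and 2, 0.983 for 1 and 3, and 0.987 for 2 and 3, by which replicates 1 and 2 were the closest pair.

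**Figure D4:**
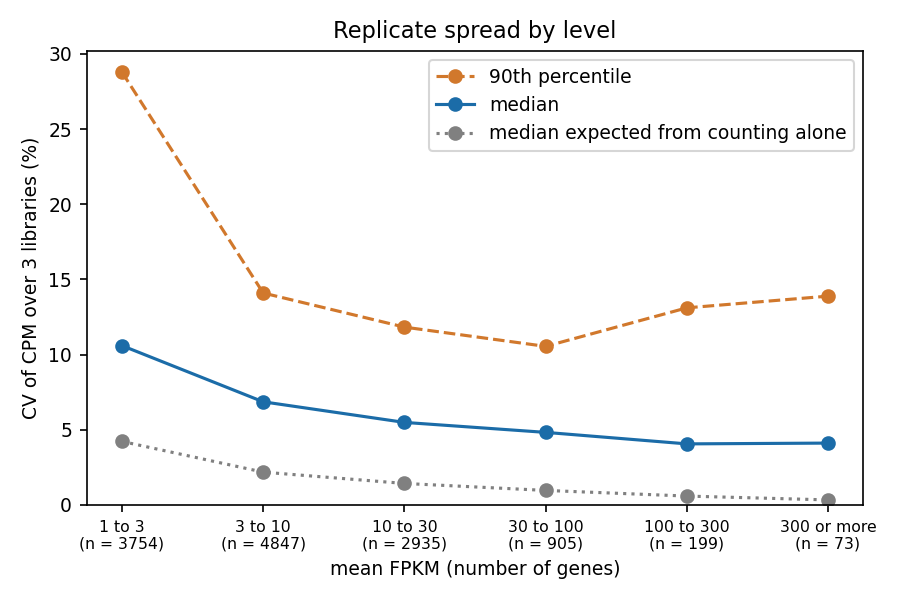
The CV of CPM over the 3 libraries is plotted in percent for classes of mean FPKM, as the median, the 90th percentile and the median expected from counting alone. The median is 10.6% in the lowest and 4.11% in the highest class and stays above the counting line in every class.

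Genes with the widest spread often overlapped another annotated gene. Whole gene spans were compared, introns included, so an overlap need not mean shared reads. Among 9100 genes with a mean of 1000 counts or more, 63 of the 100 with the largest CV overlapped another gene on the same strand, against 28.3% of all 9100. The translation initiation gene EIF4A1, chosen here after its values were seen, had 19353, 68253 and 19494 counts, and the readthrough entry SENP3-EIF4A1, which spans it and SENP3, had 52720, 5901 and 56313. The sum of the 3 entries was 74333, 79085 and 78085, with a CV of 2.81%. Over 21 such readthrough entries the median CV was 15.1%, against 5.46% for the sums. Many sums pool partners with far more counts, and CV falls with level. Some sums spread more than their readthrough entry, as for BOLA2-SMG1P6 (22.0% against 11.7%). Whether these entries shared reads was not tested. Entries such as BLOC1S5-TXNDC5 (744, 0 and 0 counts), ZNF497 (0, 618 and 0) and NBPF19 (1315, 0 and 5) were among those with the largest CV of all genes with a mean of 100 counts.

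Replicate 1 differed from the other two with the GC content of transcripts. The log2 deviation of replicate 1 from the mean of the other 2 libraries was set against GC content over 10679 expressed nuclear coding genes. The Pearson correlation was 0.43 and the Spearman correlation 0.65, across genes of 1 library that are not independent. The median deviation of replicate 1 went from -0.18 in the lowest of 10 equal GC bins to 0.20 in the highest. Chaperones are proteins that help others fold. Of 23 chaperone genes, 2 lay above the mean of the other libraries in replicate 1, as did 20 in each of replicates 2 and 3. The 2 were HSPA1A, with 3602, 3447 and 3305 counts, and HSPA1B, with 3259, 3052 and 2990, near-identical heat-inducible genes that could share reads. Over all genes, 5801 of 12713 expressed ones lay above that mean in replicate 1, 6619 in replicate 2 and 6774 in replicate 3. HSP90AA1, the inducible cytosolic form, was counted 109854, 158414 and 162053 times, and HSPH1, a large Hsp70 relative, 18769, 27527 and 28539 times. HSP90AB1, the constitutive form, had 115095, 136586 and 131540 counts. The median deviation of the list was -0.16 in replicate 1, and -0.08 within bins of equal GC content. The part of GC content in the chaperone values was not tested beyond that.

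Of the 60 genes high in replicate 3 alone, 26 belonged to 3 lists that were drawn up after their values were seen, and the remaining 34 to none of them. RNA polymerase III makes short transcripts that carry no poly(A) tail as a rule, and all 6 of its tested transcripts were at least 5-fold above both other libraries. RN7SL1, the RNA of the signal recognition particle, whose reads could also belong to the near-identical RN7SL2, had 541, 489 and 15419 counts, and RN7SK, a regulator of transcription elongation, 479, 439 and 5850. Together the 8 listed transcripts with a row had 28.2, 25.2 and 666 CPM. Of 27 keratinocyte genes with a row, 21 were tested and 16 passed the same bound. KRT6A, a keratin of activated epidermis, had 34, 17 and 2138 counts, and KRT5, the basal keratin, 34, 21 and 1042. PERP, a desmosome protein, had 0, 0 and 409 counts. Of 9 tested erythroid genes, 4 passed. ALAS2, the red-cell enzyme of haem synthesis, had 11, 9 and 1462 counts, and SLC4A1, the anion exchanger of red cells, 0, 0 and 633, at least 212-fold higher in replicate 3 with 3 counts as the floor of each library. HBA1, a globin gene, had 0, 0 and 74.

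Part of each list was present in all 3 libraries. The 27 keratinocyte genes with a row had 106, 96.5 and 231 CPM. The 20 erythroid genes had 169, 171 and 232 CPM, and of their 14309 counts in replicate 3, 2882 were in the 4 genes that passed. Without replicate 3, keratinocyte genes at 1 FPKM or more numbered 3 in place of 7. The noradrenergic, adrenergic factor, granin and pan-neuronal lists had no member 5-fold above both others in any library. The source of the transcripts in replicate 3 was not tested, and the labels place it in the same batch as the others.

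**Figure D5:**
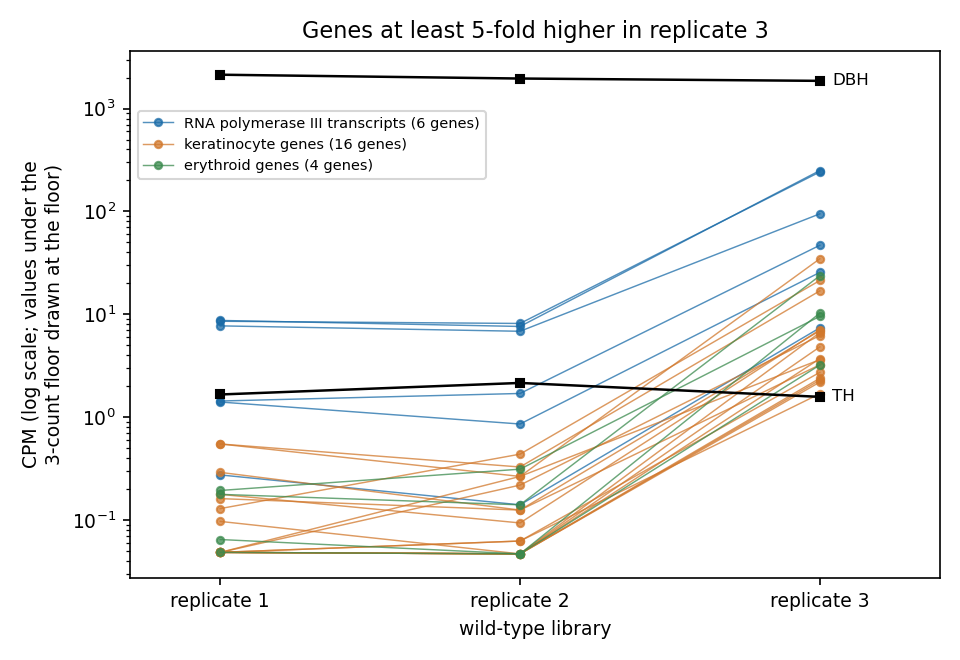
Lines join the CPM of single genes in the 3 libraries on a log axis, coloured by list, with values under the 3-count floor drawn at the floor and DBH and TH in black. The 26 coloured genes are drawn because they passed the 5-fold bound in replicate 3, so their rise there follows from that choice. DBH and TH were not chosen that way.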

How the data were processed

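Poly(A) RNA libraries of 3 wild-type SH-SY5Y samples were used, and the columns of the 3 knockout samples were not analysed here. The deposited counts are raw whole numbers for each gene. The FPKM values, so named in the file headers, also come from the authors. Their implied depth was 1.09 times the summed counts in each library. Per the submitters' processing notes, the build was hg38 and the tools included StringTie 1.3.4d, HISAT2 2.0.4 and cutadapt 1.9, without their roles. How reads shared by overlapping genes were assigned, and whether strand was used, is not given in the sources used here.

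CPM used the summed counts of each library. A gene counted as expressed at a mean of 1 FPKM, and a pseudocount of 1 was added before log2. Genes were typed as protein-coding where any listed transcript type was. Replicate spread came from edgeR 4.0.16 in R 4.3.3 (intercept only, TMM scaling), checked on simulated data; other values came from pandas 2.3.3 in Python 3.11.15. Gene lengths and GC content used GENCODE v29 and promoters the RefSeq table of GRCh38.p14. A gene counted as high in 1 library at 5-fold or more CPM above both others, with 3 counts as floor, among genes with 100 counts in all. With 1 group there was no comparison between groups and no p-value. Some listed genes are not reported here.

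Named genes were the 4 markers, the 15 highest genes by FPKM and by CPM, up to 4 highest members of each list, 3 of each transcript type and the 10 of largest CV. List members named beyond these, RACK1, EIF4A1 and the promoter examples were picked with their values in view. The libraries and all lists were chosen with earlier results of these data known.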

Additional observations from a re-analysis of the deposited data

How the results depend on the processing

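No paired analysis was possible because a single group of samples is described, and the replicate numbers it shares with the knockout samples pair nothing here. Of 53 alternative values for the 8 main quantities, 34 stayed within the replicate SD (counts of genes within 1.5 times, the coefficient of variation within its range on leaving out 1 replicate) and 19 moved, none with a change of sign. Leaving out 1 replicate at a time gave 12698 to 12731 expressed genes, 8.67% to 8.81% of counts in the 10 most abundant genes and a gap of 4.95 to 5.07 between adrenergic and mesenchymal medians, and a biological coefficient of variation of 13.3% to 15.7%.

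A bound of 5 FPKM left 6937 expressed genes. By summed FPKM, the 10 highest genes took 25.7%, mitochondrial genes 31.4%, ribosomal protein genes 6.10% and protein-coding genes 85.9%, and 187 genes reached 50%, since FPKM divides by length. Without mitochondrial genes the shares were 4.44% for the 10 highest, 6.17% for ribosomal protein and 95.8% for protein-coding genes; with expressed genes only, ribosomal protein genes took 5.72% and protein-coding genes 95.1%. The gap between adrenergic and mesenchymal medians was 5.75 with a pseudocount of 0.1, 4.24 on log2(CPM + 1), 5.57 on log2(TPM + 1) and 3.63 over members at 1 FPKM or more. Alternatives chosen after seeing the data gave 4.76 per kilobase of the longest transcript and 5.19 with absent genes at 0. The biological coefficient of variation was 29.9% with no filter and 11.1% at 5 FPKM or more. In TPM, DBH stood at 2335 and TH at 1.78. TH had 97 to 138 counts per library, where the limit for a gene with no count was 3.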

Other observations

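Expression was spread unevenly over chromosomes. Among the autosomes and X, the share of coding genes at 1 FPKM or more ranged from 60.3% on chromosome 4 to 71.9% on chromosome 16. The median level of expressed coding genes was highest on chromosome 7 at 9.15 FPKM, followed by chromosome 20 at 8.46 and chromosome 17 at 8.23, and lowest on chromosome 18 at 4.74 FPKM. Chromosome 1 held 11.3% ± 0.107 of nuclear counts and chromosome 21, which carries the 4 lncRNA entries in the ribosomal DNA, 1.43% ± 0.228.

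Among paralogs of metabolic and neuronal genes, one member usually dominated in all 3 libraries. ENO1 exceeded the neuronal enolase ENO2 by 5.55, 6.21 and 6.64 times per length, ALDOA exceeded the brain aldolase ALDOC 9.86 ± 1.12-fold, and the RNA-binding protein gene ELAVL4 exceeded ELAVL2 11.6 ± 0.192-fold. EEF1A1 exceeded EEF1A2, the form of mature neurons and muscle, by 9.39, 11.8 and 11.6 times, with a gene length that lowers the EEF1A1 value. CDK4 exceeded CDK6, both partners of D-type cyclins, 10.4-, 8.15- and 7.75-fold.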
